A study of Arabidopsis thaliana with 36 samples.

Results

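The transcripts of 10 genes that act in DNA replication, mitosis and cytokinesis were followed through roots of Arabidopsis thaliana exposed to the bacterial peptide flg22, to Fe deficiency or to both. The genes were chosen by locus, as a list of known actors of the cell cycle and with no threshold on any value. Earlier results of these data were known when the list was made. The list held the B1-type cyclins CYCB1;1, CYCB1;2 and CYCB1;4 and the B-type cyclin-dependent kinases CDKB1;1, CDKB2;1 and CDKB2;2. It also held the cytokinesis syntaxin KNOLLE, the Aurora kinase AUR1, the sliding clamp PCNA1 and the helicase subunit MCM2. All 10 were among the 24532 gene loci of the count table, and all 10 passed the filter on low counts that left 20354 genes for testing. Seedlings 7 days old, raised with Fe, spent 24 h in liquid medium that held either 75 µM Fe (+Fe) or 50 µM of the Fe chelator FerroZine (-Fe), each with or without 100 nM flg22. The genotypes were the wild type Col-0 (WT), the receptor mutant fls2 and a line carrying UBQ10::mCitrine-IMA1, called IMA1ox here, in which the broadly active UBQ10 promoter drives an mCitrine-tagged form of the peptide gene IMA1. The labels do not name the fls2 allele or the number of independent IMA1ox lines. Each of the 12 groups had 3 libraries, and every library pooled the roots of about 15 seedlings, and the p-values therefore measure the spread between pools.

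Plant cells copy their DNA in S phase and separate it in mitosis, and in the root these divisions are concentrated in the meristem behind the tip. B-type cyclins bind cyclin-dependent kinases, among them the plant-specific CDKB proteins, and their transcripts accumulate in cells that approach or pass through mitosis, whereas PCNA and the MCM helicase act at replication forks. The receptor kinase FLS2 binds flg22, a peptide of bacterial flagellin, and long exposure to flg22 is known to slow seedling growth, while IMA peptides promote Fe uptake. In a whole-root library, fewer dividing cells and less RNA of these genes per cell cannot be told apart.

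The promoters of CYCB1;1, CYCB1;2, KNOLLE and MCM2 are shown because they hold the known recognition letters of cell cycle transcription factors in genes that moved together here. Each sequence is the 250 bases before the annotated gene start, 5′ to 3′ on the gene's own strand, from the RefSeq genome TAIR10.1. Capitals mark, on either strand, the core AACGG of the mitosis-specific activator element, its longer form CNAACGG, and the E2F site spelled TTTCCCGC, TTTCGCGC, TTTGCCGC or TTTGGCGC. The longer form contains the core, and a match on the opposite strand reads CCGTT.
CYCB1;1, chr4:17624309-17624558, minus strand: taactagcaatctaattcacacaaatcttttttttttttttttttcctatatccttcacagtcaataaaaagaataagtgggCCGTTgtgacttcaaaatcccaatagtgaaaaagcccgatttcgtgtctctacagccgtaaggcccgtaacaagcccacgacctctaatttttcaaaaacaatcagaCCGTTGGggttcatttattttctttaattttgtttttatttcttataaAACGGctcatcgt
CYCB1;2, chr5:1861704-1861953, minus strand: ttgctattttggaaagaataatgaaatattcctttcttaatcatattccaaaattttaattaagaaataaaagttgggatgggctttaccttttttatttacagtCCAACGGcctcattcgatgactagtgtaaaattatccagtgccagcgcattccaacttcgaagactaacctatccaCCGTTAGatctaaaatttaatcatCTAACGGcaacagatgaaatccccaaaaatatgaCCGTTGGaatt
KNOLLE, chr1:2711001-2711250, minus strand: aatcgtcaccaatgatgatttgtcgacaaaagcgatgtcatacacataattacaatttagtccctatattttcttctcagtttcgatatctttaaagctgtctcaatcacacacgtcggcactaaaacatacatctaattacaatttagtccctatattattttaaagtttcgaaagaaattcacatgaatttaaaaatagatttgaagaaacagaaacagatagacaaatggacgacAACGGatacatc
MCM2, chr1:16969964-16970213, plus strand: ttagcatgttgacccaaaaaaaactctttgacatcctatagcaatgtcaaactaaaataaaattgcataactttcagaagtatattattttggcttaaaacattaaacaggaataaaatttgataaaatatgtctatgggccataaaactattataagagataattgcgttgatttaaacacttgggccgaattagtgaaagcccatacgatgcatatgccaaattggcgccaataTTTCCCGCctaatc

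CYCB1;1 held 3 copies of the core, 1 of them in the longer form, and CYCB1;2 held 4 copies, all in the longer form. KNOLLE held 1 core that ended 8 bases before the gene start, and MCM2 held TTTCCCGC from 14 to 7 bases before the start. CDKB2;2 and AUR1 each held 1 core as well, and the windows of CYCB1;4, CDKB1;1, CDKB2;1 and PCNA1 held none of these letters. Over the 10 genes, 5 had the core against 20.6% of the 27443 promoters of the annotation, 2 had the longer form against 4.5%, and 1 had an E2F site against 1.41%. A match describes the letters only. The windows of CDKB1;1, CDKB2;1 and PCNA1 also overlap an exon of a neighbouring gene.

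Library totals ran from 28130566 to 40903411 counts. Each of the 10 genes was covered by 307 to 2391 counts in every library. FLS2 had 0 to 3 counts per fls2 library, and IMA1 stood at 310 to 449 CPM in the IMA1ox group means against 2.45 in WT with Fe. The root markers PYK10, EXPA7, COBL9 and CASP1 had counts in every group. After group means were subtracted, the spread over all genes was largest in IMA1ox -Fe flg22 replicate 1 (root mean square 0.274 on the log2 scale) and WT -Fe replicate 3 (0.246), against 0.158 to 0.223 in the other 34 libraries. Normalised read counts are given as CPM, counts per 1000000 of a library total scaled by the trimmed mean of M values (TMM). A gene is called higher or lower when its Benjamini-Hochberg adjusted p over the 20354 genes, from edgeR's quasi-likelihood test, was under 0.05.

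The first comparison asked how flg22 moved these genes in plants able to perceive it. In WT with Fe, all 10 fell. The decrease ran from 18.1% in MCM2 to 34.3% in CDKB1;1, with a median log2 fold change of -0.54, while the median over all genes tested was 0.01. Lower calls covered 19.4% of all genes in this comparison. The libraries with and without flg22 did not overlap for any of the 10, against 23.6% of all genes separated in this direction. The adjusted p-values ran from 1.06e-05 for PCNA1 to 0.0122 for CYCB1;1.

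**Figure D1:**
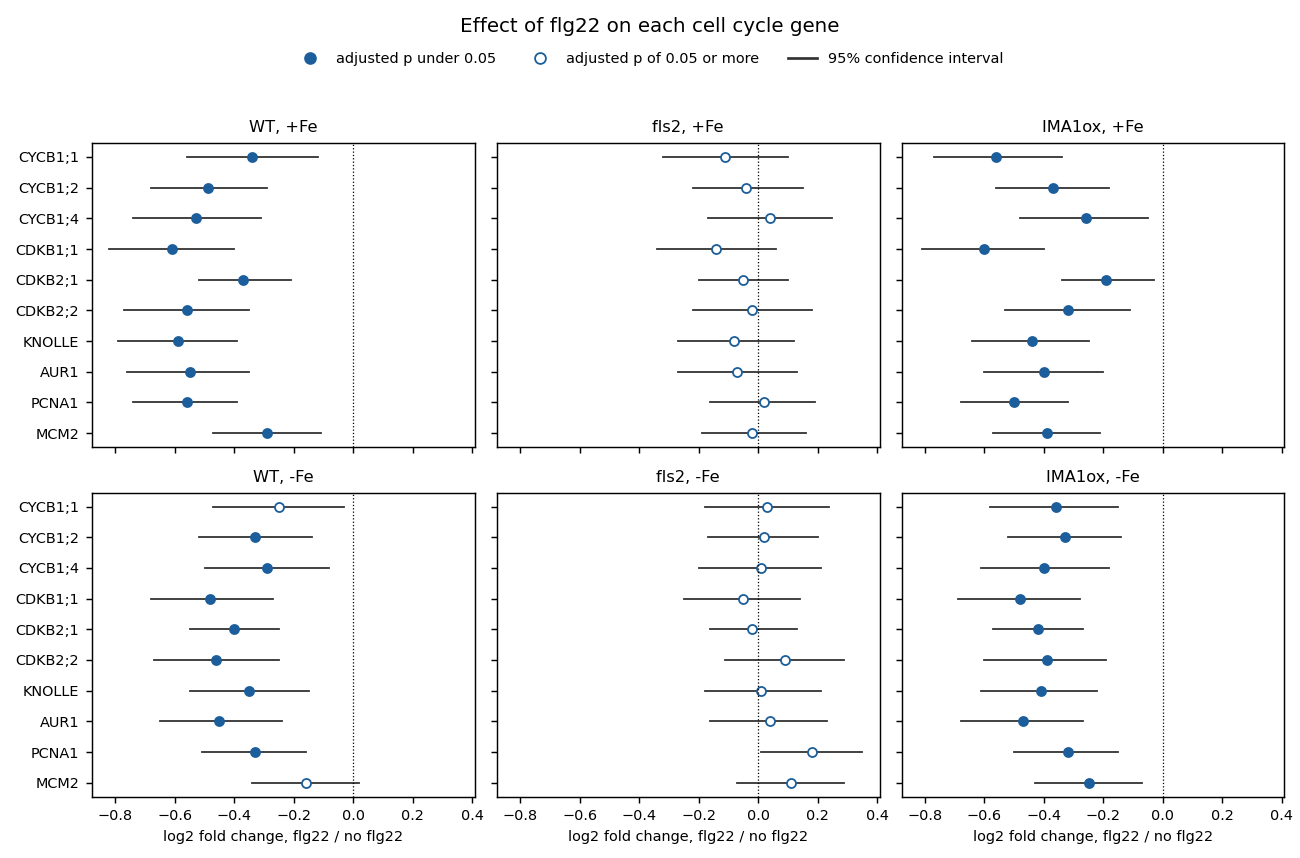
Log2 fold change of each of the 10 genes after flg22 (x axis, flg22 over no flg22) in WT, fls2 and IMA1ox (columns) with Fe (top) and without Fe (bottom), as points with 95% confidence intervals from the edgeR fit. Filled points passed an adjusted p of 0.05: 10 in WT +Fe, 8 in WT -Fe, 10 in each IMA1ox panel and 0 in fls2.

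In Fe-deficient WT, 8 of the 10 fell with flg22, against 16.8% of all genes called lower. The log2 changes ran from -0.48 for CDKB1;1 to -0.16 for MCM2, with a median of -0.34. CYCB1;1 (-0.25, adjusted p = 0.0663 by edgeR) and MCM2 (adjusted p = 0.155 by edgeR) did not pass. Of the 10 genes, 7 were separated between groups, against 20.6% of all genes separated in this direction. Without WT -Fe replicate 3, the count was 9.

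Among the mitotic cyclins, the partners of cyclin-dependent kinases at mitosis, CYCB1;1 (AT4G37490, chr4:17621886-17624308, minus strand, 8 exons) stood at 15.3, 14.4 and 15.2 CPM in WT with Fe. With flg22 it stood at 10.5, 11.4 and 13.6 CPM. The ranges did not overlap, and the log2 change was -0.34 ± 0.11 (SE). This call rested in part on flg22 replicate 1, without which the adjusted p by edgeR was 0.082. In Fe-deficient WT the values were 14.5, 17.8 and 16.1 CPM without flg22 and 14.8, 13.6 and 12.3 CPM with it, so the ranges overlapped. In IMA1ox with Fe the gene fell from 17.1, 18.8 and 18 to 12.6, 13.2 and 10.7 CPM, a log2 change of -0.56 ± 0.11 (SE, edgeR adjusted p = 0.000136).

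CYCB1;2 (AT5G06150, chr5:1859279-1861703, minus strand, 4 exons), the cyclin whose promoter held 4 copies of CNAACGG, fell in WT with Fe from 26.9, 31.2 and 26.6 to 19.1, 20.1 and 21.2 CPM. The log2 change was -0.49 ± 0.09 (SE, edgeR adjusted p = 0.000172). In Fe-deficient WT it fell from 27.7, 32.2 and 28.4 to 24.0, 22.6 and 23.7 CPM, again with no overlap. CYCB1;4 (AT2G26760, chr2:11401118-11403433, plus strand, 5 exons) fell in WT with Fe from 29.9, 33.4 and 29 to 19.8, 22.1 and 22.2 CPM, a log2 change of -0.53 ± 0.10 (SE). In Fe-deficient WT it read 29.8, 30.9 and 21.8 CPM without flg22 and 23.5, 21.2 and 22.8 CPM with it. Replicate 3 without flg22 lay inside the flg22 range, and the log2 change of -0.29 (edgeR adjusted p = 0.0307) was lost in 5 of 15 alternatives.

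The B-type kinases showed the largest change of the 10 genes and one of the smaller ones. CDKB1;1 (AT3G54180, chr3:20059671-20061488, plus strand, 4 exons) stood at 19.2, 20.1 and 19.2 CPM in WT with Fe and at 12.6, 10.9 and 15.0 CPM with flg22. The groups lay well apart, and the log2 change was -0.61 ± 0.10 (SE, edgeR adjusted p = 3.66e-05). In Fe-deficient WT it moved from 20.6, 21.5 and 19.2 to 16.3, 14 and 13.7 CPM, and in IMA1ox with Fe from 23.1, 22.2 and 21.7 to 14.4, 15.7 and 14 CPM. In Fe-deficient IMA1ox it moved from 20.5, 21.2 and 25.2 to 17.7, 12.6 and 17.6 CPM. No flg22 library of WT or IMA1ox reached the lowest value of the other groups. The 12 flg22 libraries spanned 10.9 to 17.7 CPM and the other 24, fls2 included, 19.2 to 25.2 CPM. The share of all genes separated in this way was not counted.

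CDKB2;1 (AT1G76540, chr1:28720328-28722550, minus strand, 8 exons) fell in WT with Fe from 39.5, 39.6 and 34.7 to 28.5, 29.9 and 29.9 CPM, a log2 change of -0.37 ± 0.07 (SE, edgeR adjusted p = 0.000305). In IMA1ox with Fe the change was smaller in value, from 38.3, 37.9 and 37.9 to 34.2, 34.1 and 32.1 CPM. That call (-0.19, edgeR adjusted p = 0.0425) was lost in 5 of 14 alternatives, each of which left out 1 library. CDKB2;2 (AT1G20930, chr1:7292389-7294746, minus strand, 8 exons) fell in WT with Fe from 22.1, 26.1 and 20.4 to 14.6, 15.5 and 16.4 CPM, a log2 change of -0.56 ± 0.10 (SE, edgeR adjusted p = 0.000106). CDKB2;1 and CDKB2;2 are close relatives with 86.1% identity over their coding sequences and a longest shared run of 29 bases. A read longer than that run cannot match both transcripts exactly. Whether reads were shared between them was not tested.

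KNOLLE (AT1G08560, chr1:2709525-2711000, minus strand, 2 exons), the syntaxin that fuses vesicles at the forming cell plate, had the highest level per kilobase of exon among the 10 genes. In WT with Fe it reached 40.6 CPM per kb, against 9.19 CPM per kb for CYCB1;1, the lowest. Its WT values were 55.5, 60.3 and 52.9 CPM with Fe and 33.9, 37.0 and 41.3 CPM after flg22. The groups did not overlap, and the log2 change was -0.59 ± 0.10 (SE, edgeR adjusted p = 2.98e-05). In Fe-deficient WT it fell from 56.4, 62.7 and 46.0 to 44.4, 43.7 and 41.4 CPM, where replicate 3 without flg22 came close to the flg22 libraries. AUR1 (AT4G32830, chr4:15842443-15844865, plus strand, 9 exons), a kinase of the mitotic spindle, fell in WT with Fe from 24.3, 27.3 and 24.0 to 16.8, 16.4 and 18.3 CPM. Its log2 change was -0.55 ± 0.10 (SE, edgeR adjusted p = 9.19e-05), and its relative AUR2 has 70.7% coding identity to it.

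Both replication genes fell in WT with Fe. PCNA1 (AT1G07370, chr1:2263037-2264553, plus strand, 4 exons), which encodes the clamp that holds DNA polymerase on its template, stood at 34, 35.7 and 35.4 CPM and, with flg22, at 24.1, 22.8 and 24.3 CPM. The groups lay well apart, and the log2 change was -0.56 ± 0.09 (SE). In Fe-deficient WT it fell from 33.7, 38.8 and 31.7 to 26.4, 29.7 and 26.6 CPM. Its paralogue PCNA2 has 85.3% coding identity and a shared run of 41 bases. MCM2 (AT1G44900, chr1:16970214-16974753, plus strand, 16 exons), a subunit of the replicative helicase, changed least: 46.1, 43.0 and 43.1 CPM became 36.5, 33.9 and 37.8 CPM, a log2 change of -0.29 ± 0.09 (SE, edgeR adjusted p = 0.0101). In Fe-deficient WT the 44.8, 50.9 and 38.8 CPM without flg22 overlapped the 39.7, 42.6 and 38.0 CPM with it.

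**Figure D2:**
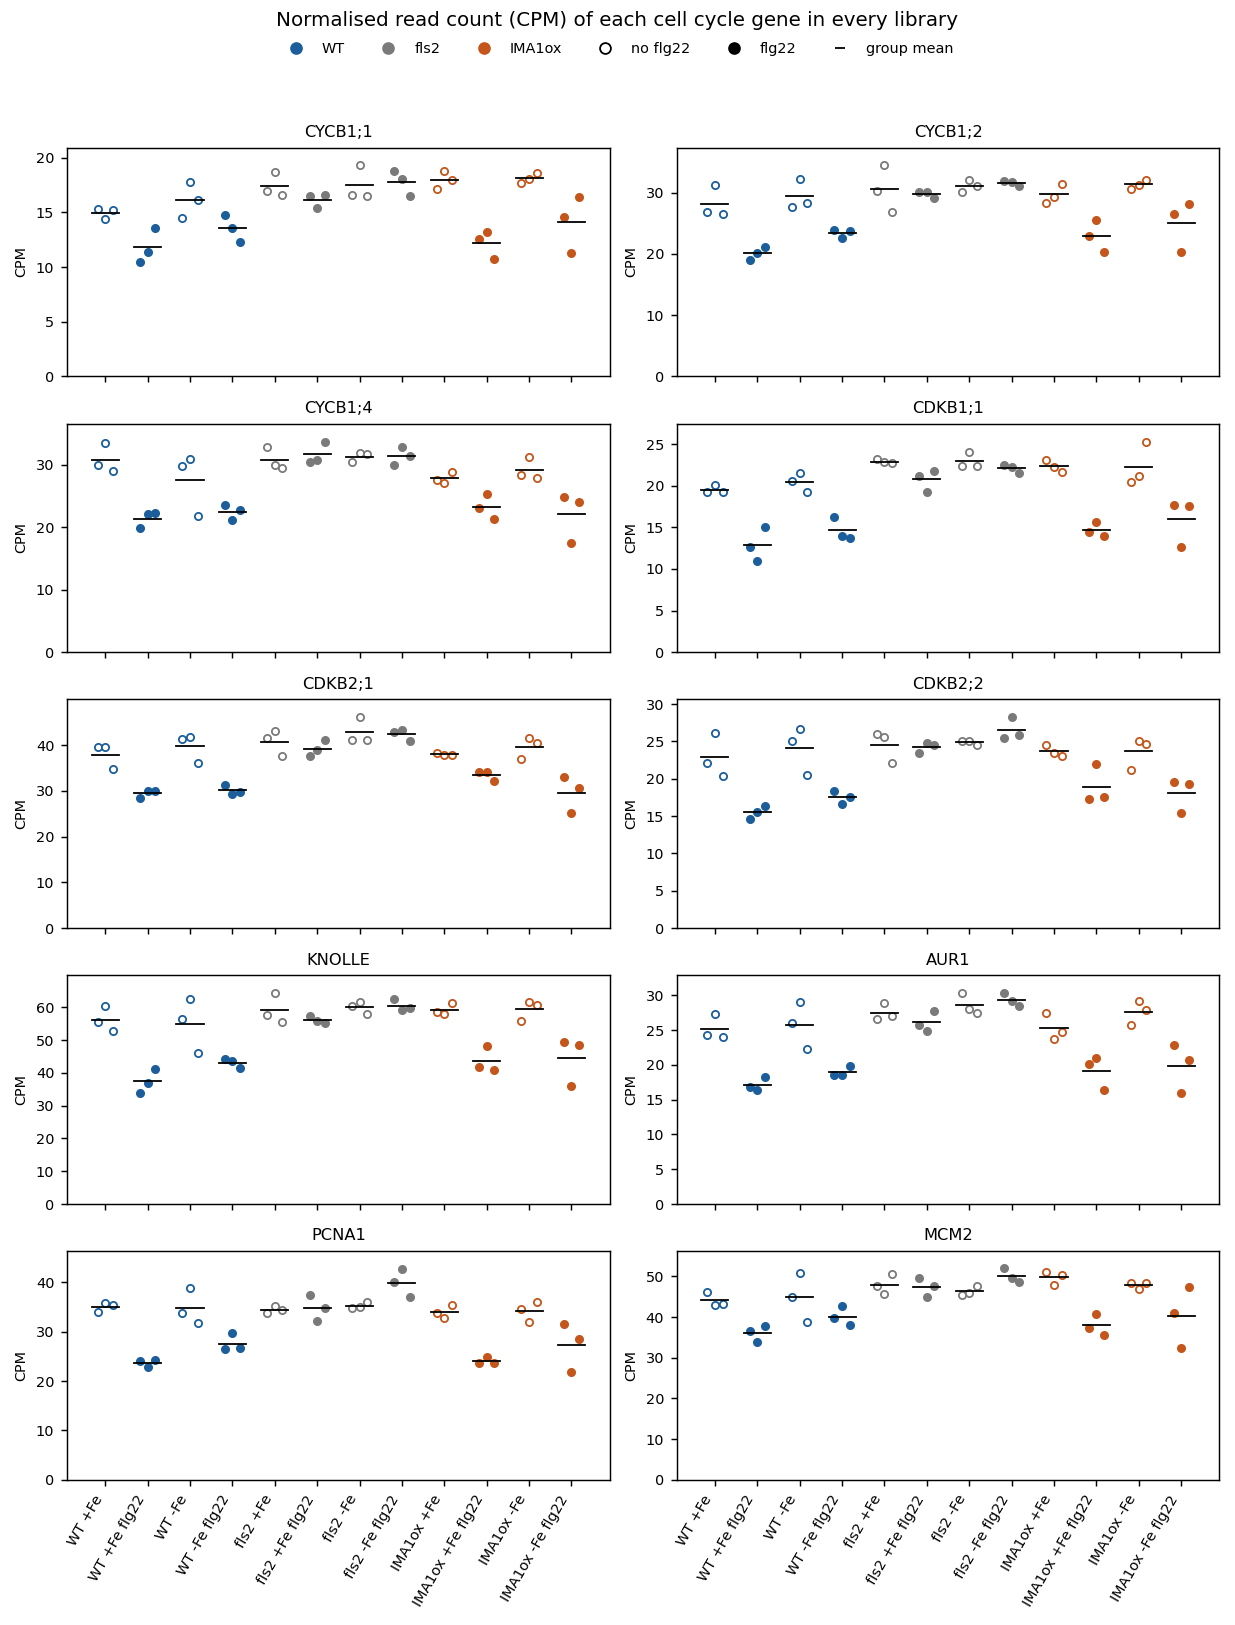
Normalised read count (CPM, y axis from 0) of each of the 10 genes in every library (points, 3 per group, lines at group means), by group. The group means of WT (blue) and IMA1ox (orange) with flg22 (filled) lie below those without (open) in every panel. For CDKB1;1, CDKB2;1 and PCNA1 these 12 flg22 libraries do not overlap the other 24. The gap is narrow for CDKB2;1 (34.2 against 34.7 CPM) and PCNA1 (31.5 against 31.7 CPM). The share of all genes separated in this way was not counted.

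Mutation of the flg22 receptor was the second question, and in fls2 the same peptide moved none of the 10 past the test. With Fe the log2 changes ran from -0.14 for CDKB1;1 to 0.04 for CYCB1;4, and without Fe from -0.05 to 0.18 for PCNA1. The 95% confidence intervals of the 10 genes spanned -0.34 to 0.25 with Fe and -0.25 to 0.35 without. Over all genes edgeR called 0 (0%) in either Fe supply, and DESeq2 and limma-trend called 0 of the 10 genes as well. At an unadjusted p under 0.05 there were 0 of 10 genes with Fe (3.18% of all genes) and 1 of 10 without Fe (3.96% of all genes), which was PCNA1. Groups did not overlap for CYCB1;1 and CDKB1;1 with Fe, both lower with flg22 (3.83% of all genes), and for CDKB2;2, PCNA1 and MCM2 without Fe, all higher with flg22 (6.2%). PCNA1 in Fe-deficient fls2 stood at 34.8, 35 and 36 CPM without flg22 and at 40.1, 42.6 and 37.0 CPM with it. CDKB1;1 in fls2 with Fe read 23.2, 22.8 and 22.7 CPM without flg22 and 21.2, 19.3 and 21.8 CPM with it. KNOLLE in fls2 with Fe read 57.6, 64.3 and 55.5 CPM without and 57.3, 55.9 and 55.2 CPM with the peptide.

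The difference between the flg22 effects of fls2 and WT was itself tested. With Fe it was called in 8 of the 10 genes, all toward a weaker decrease in fls2, against 9.86% of all genes called in that direction. The differences ran from 0.24 for CYCB1;1 to 0.58 for PCNA1 on the log2 scale, and CYCB1;1 (adjusted p = 0.273 by edgeR) and MCM2 (adjusted p = 0.118 by edgeR) did not pass. Without Fe it was called in 5 of the 10, CDKB1;1, CDKB2;1, CDKB2;2, AUR1 and PCNA1, against 10.2% of all genes in that direction. That count was 7 with DESeq2 and 5 with limma-trend. With 1 library left out it ran from 4, as without WT -Fe replicate 2, to 9 without WT -Fe replicate 3, and it was 9 without both libraries that stood far from their groups. CYCB1;2 and KNOLLE, at 0.35 and 0.36, had edgeR adjusted p-values of 0.0534 and 0.0537.

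Set directly against WT, fls2 gave no call among the 10 without flg22, either with Fe (0% of all genes called higher, 0.0197% lower) or without (0.00491% higher, 0.0983% lower). DESeq2 also gave 0 in both, and at an unadjusted p under 0.05 the counts were 2 with Fe and 0 without, against 6.49% and 9.49% of all genes. The median log2 difference was 0.11 in each Fe supply, and 2 of the 10 with Fe and 0 without were negative. Under flg22 all 10 were higher in fls2 in each Fe supply, with median log2 differences of 0.57 with Fe and 0.49 without, against 23.6% and 23.2% of all genes called higher. These comparisons share their flg22-treated WT libraries with the flg22 comparisons in WT. CDKB1;1 with Fe showed the largest difference, 20.8 CPM in fls2 against 12.8 CPM in WT as group means.

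IMA1ox asked whether constitutive IMA1 changed these levels or their response. In IMA1ox, flg22 lowered all 10 genes with Fe (20.4% of all genes called lower) and all 10 without Fe (21.5%). The median log2 changes were -0.40 and -0.39. With Fe, all 10 were separated between groups against 25.8% of all genes in this direction, and without Fe 9 were, against 24%, with MCM2 the exception. KNOLLE with Fe fell from 58.5, 58.1 and 61.3 to 41.7, 48.2 and 40.9 CPM, and PCNA1 from 33.8, 32.8 and 35.4 to 23.7, 24.8 and 23.6 CPM. Both genes lay clearly apart between the groups.

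In Fe-deficient IMA1ox, 1 library weighed on the result. Replicate 2 with flg22 was the lowest of its group for 10 of 10 genes, for example 35.9 CPM of KNOLLE beside 49.4 and 48.4 CPM in replicates 1 and 3. Without it, 5 of the 10 genes passed the test, CDKB1;1, CDKB2;1, CDKB2;2, KNOLLE and AUR1. CYCB1;1 (log2 change -0.23), CYCB1;2 (-0.20), CYCB1;4 (-0.25), PCNA1 (-0.19) and MCM2 (-0.11) then did not. Without IMA1ox -Fe flg22 replicate 1, the library farthest from its group over all genes, the count stayed at 10.

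The flg22 effect itself was not found to differ between IMA1ox and WT. In this test of the difference edgeR called 0 of the 10 genes with Fe (0.467% of all genes lower, 0.398% higher) and 0 without Fe (0.801% lower, 2.07% higher), and 0 had an unadjusted p under 0.05 (14.2% and 14.9% of all genes). DESeq2 and limma-trend gave 0 too. The differences ran from -0.22 for CYCB1;1 to 0.26 for CYCB1;4 with Fe, and from -0.11 for CYCB1;1 to 0.07 for CDKB2;2 without. The outermost limits of the confidence intervals over the 10 genes were -0.52 and 0.57 with Fe, and -0.42 and 0.36 without. They come from different genes, and the interval of a single gene is narrower. Whether it held a difference as large as that gene's flg22 effect was not tested. The absence of calls does not show that the effects were equal.

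IMA1ox and WT given the same treatment were also compared. None of the 10 was called in any of the 4 treatments, where lower and higher calls covered 9.63% and 7.09% of all genes with Fe, 7.76% and 4.15% without Fe, 7.44% and 7.05% with Fe and flg22, and 5.88% and 4.44% without Fe and with flg22. At an unadjusted p under 0.05 the counts were 1, 0, 3 and 0 of 10, against 30.8%, 26.4%, 27.5% and 23.1% of all genes. The median log2 differences were 0.06, 0.09, 0.17 and 0.04, and 2, 3, 0 and 3 of the 10 were negative. CYCB1;1 with Fe came nearest of the untreated values, 17.1, 18.8 and 18 CPM in IMA1ox against 15.3, 14.4 and 15.2 CPM in WT, with a log2 difference of 0.26 and an edgeR adjusted p of 0.0809. CDKB2;2 under flg22 with Fe read 17.3, 22 and 17.5 CPM in IMA1ox against 14.6, 15.5 and 16.4 CPM in WT, with a log2 difference of 0.29 and an edgeR adjusted p of 0.0592. Over the 10 genes with Fe, the groups did not overlap for 3 that were higher in IMA1ox, CYCB1;1, CDKB1;1 and MCM2 (19.1% of all genes), and for 1 that was lower, CYCB1;4 (18.2%). CYCB1;4 read 27.5, 27.1 and 28.9 CPM in IMA1ox and 29.9, 33.4 and 29 CPM in WT. Under flg22 with Fe they did not overlap for 2, CDKB2;1 and CDKB2;2, both higher in IMA1ox (15.4%). None of these passed the adjusted test.

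**Figure D3:**
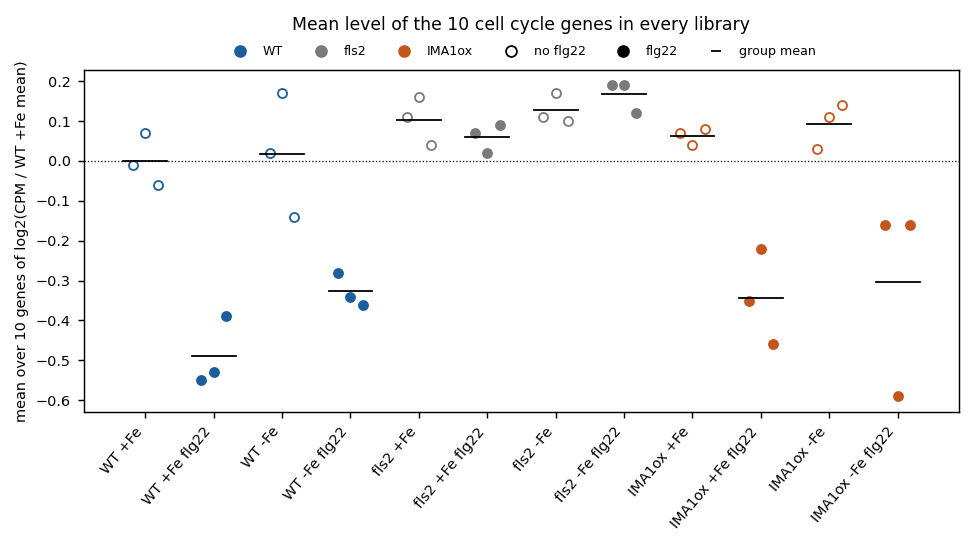
Mean over the 10 genes of log2(CPM / mean CPM in WT +Fe) (y axis) in every library (points, lines at group means), by group. The 6 WT libraries with flg22 lie between -0.55 and -0.28, the 6 IMA1ox libraries with flg22 between -0.59 and -0.16, and the 12 fls2 libraries between 0.02 and 0.19. Without flg22, the 6 WT libraries lie between -0.14 and 0.17 and the 6 IMA1ox libraries between 0.03 and 0.14. WT -Fe replicate 3, at -0.14, lies close to the highest flg22 libraries of IMA1ox, at -0.16.

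Fe deficiency was the remaining factor, and it moved none of the 10 genes past the test in any genotype, with or without flg22. Without flg22, lower and higher calls covered 2.85% and 3.12% of all genes in WT, 0.968% and 1.15% in fls2, and 2.39% and 1.9% in IMA1ox. With flg22 they covered 0.0197% and 0.118% in WT, 3.22% and 2.08% in fls2, and 1.38% and 0.884% in IMA1ox. DESeq2 and limma-trend called 0 of the 10 in each of the 6 comparisons. At an unadjusted p under 0.05 the counts without flg22 were 0 in WT (18.9% of all genes), 0 in fls2 (13.9%) and 0 in IMA1ox (15.4%), and with flg22 they were 1 in fls2 (20.9%) and 2 in IMA1ox (15.7%). In WT without flg22 the log2 changes ran from -0.16 for CYCB1;4 to 0.11 for CYCB1;1, and the 95% intervals spanned -0.37 to 0.32. KNOLLE, for example, read 55.5, 60.3 and 52.9 CPM with Fe and 56.4, 62.7 and 46.0 CPM without.

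Under flg22 the Fe-deficient WT roots had the higher mean for all 10 genes, with a median log2 difference of 0.19, but no gene passed the adjusted test. At an unadjusted p under 0.05 there were 3 of 10, CYCB1;2, KNOLLE and PCNA1, against 10.4% of all genes. For 6 of the 10 the groups did not overlap, against 7.63% of all genes separated in this direction. PCNA1 read 24.1, 22.8 and 24.3 CPM with Fe and 26.4, 29.7 and 26.6 CPM without, and its edgeR adjusted p was 0.394. In flg22-treated fls2, the Fe-deficient roots had the higher value for 9 of the 10 genes, with a median log2 difference of 0.11, and 4 of the 10 were separated in this direction, against 14.3% of all genes. The test of whether the flg22 effect depended on Fe supply called 0 of the 10 in WT (0.133% of all genes lower, 0.113% higher), 0 in fls2 (0%) and 0 in IMA1ox (0.0393% lower, 0.138% higher). At an unadjusted p under 0.05 the counts were 0, 0 and 1, against 7.65%, 2.56% and 9.77% of all genes, and DESeq2 also called 0. The Fe deficiency effect itself was compared between genotypes in tests added after the data were examined, and edgeR called 0 of the 10 for IMA1ox minus WT without flg22 (2.31% of all genes lower, 1.71% higher), 0 for IMA1ox minus WT with flg22 (0.113% and 0.0295%) and 0 for fls2 minus WT without flg22 (0% in either direction).

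**Figure D4:**
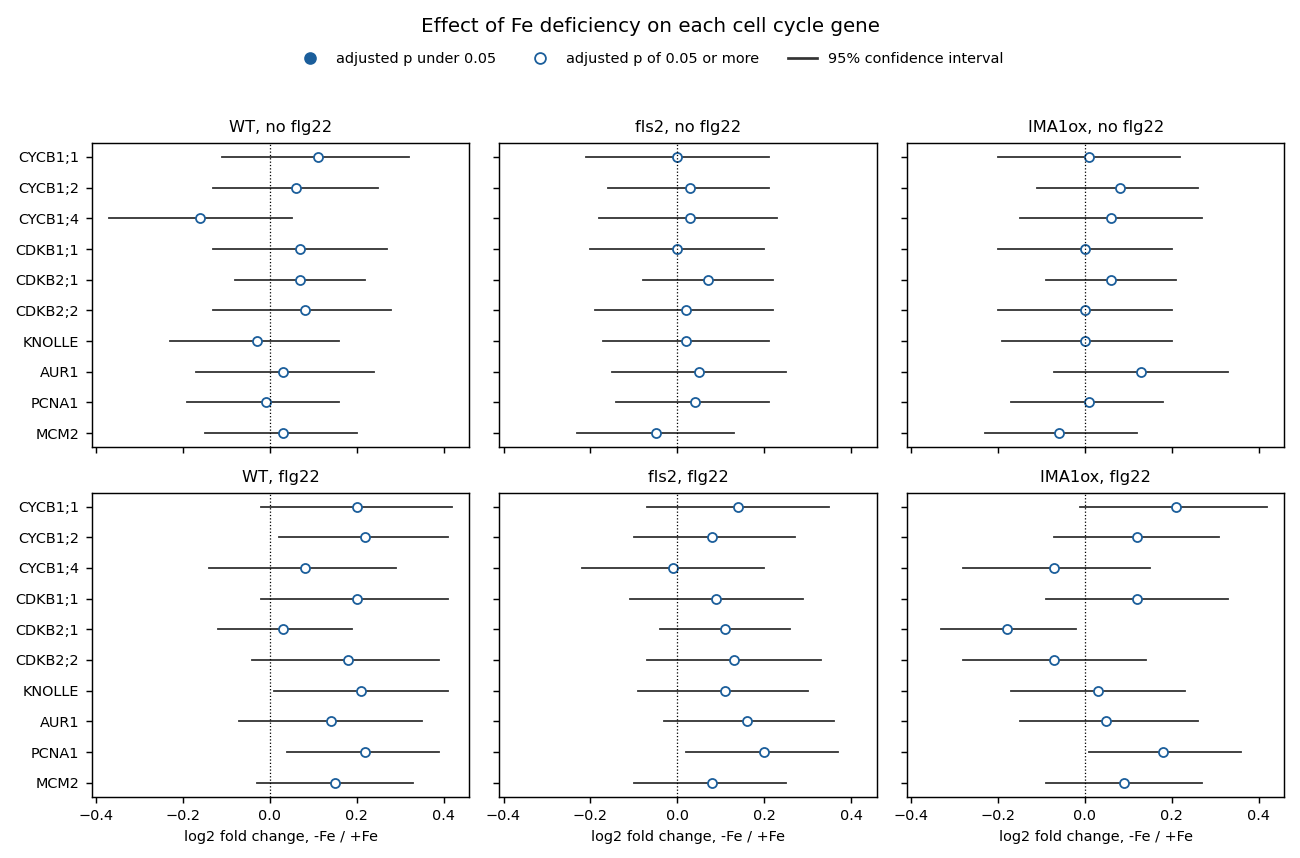
Log2 fold change of each of the 10 genes under Fe deficiency (x axis, -Fe over +Fe) in WT, fls2 and IMA1ox (columns) without flg22 (top) and with flg22 (bottom), as points with 95% confidence intervals from the edgeR fit. All points are open, since no gene passed an adjusted p of 0.05, and in WT with flg22 all 10 lie above 0.

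Across the 12 groups, WT with Fe and flg22 had the lowest mean for each of the 10 genes. The margin could be small: CDKB2;1 had a mean of 29.4 CPM there and 29.6 CPM in Fe-deficient IMA1ox with flg22. With all 12 groups ordered by their means, the ranges of neighbouring groups overlapped in 99 of 110 pairs over the 10 genes. The highest mean belonged to an fls2 group for 9 of the 10, and to Fe-deficient IMA1ox for CYCB1;1. When the 8 groups other than flg22-treated WT and IMA1ox were ordered by their means, the ranges of neighbouring groups overlapped in 67 of 70 pairs over the 10 genes. Groups next to each other in an order of means lie close through the ordering. Neither count can therefore show that groups are alike, and the share over all genes was not counted. For MCM2 the 12 flg22 libraries of WT and IMA1ox reached 47.4 CPM, and 10 of the other 24 libraries lay at or below that value. CYCB1;1 had 6 such libraries and CYCB1;2 had 4.

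The genes also varied together between replicates of one group. Group means were subtracted on the log2 scale. The 45 pairs of genes then had a median Pearson r of 0.66 over the 36 libraries, from 0.44 to 0.83. The median Spearman rho was 0.58, from 0.21 for CDKB2;1 with MCM2 to 0.84 for CYCB1;4 with CDKB2;2. Pairs of other genes were not measured for comparison. The points share their libraries and scaling, so these values are descriptions. The mean deviation of the 10 genes was lowest in IMA1ox -Fe flg22 replicate 2 (-0.29) and WT -Fe replicate 3 (-0.16).

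Among 18654 other genes with a mean of at least 1 CPM, those whose log2 profile over the 36 libraries was most like the mean of the 10 were DUT1, IQD31, TUB7, CHR1, AT1G30690, RPL3B, SKU5, UBC20, AT3G54750 and AT5G17160. Their Pearson r ran from 0.963 to 0.975. The genes were picked by this profile over the same libraries, so their fall after flg22 followed from the choice. DUT1, a dUTP pyrophosphatase, had log2 changes of -0.52 in WT and -0.46 in IMA1ox after flg22 with Fe and 0.03 in fls2. CHR1, the chromatin remodeller also known as DDM1, had -0.50, -0.38 and -0.09. RPL3B had -0.61, -0.64 and -0.04, and SKU5 had -0.53, -0.51 and -0.03.

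Other genes of the cell cycle were counted from lists of 91 genes, of which 90 were tested. These lists too were chosen with earlier results of these data known. In WT with Fe, flg22 lowered 48 of the 90 and raised 2, beside 19.4% lower and 20.8% higher of all genes. In Fe-deficient WT the counts were 37 and 1, beside 16.8% and 18.2% of all genes. In IMA1ox they were 51 and 2 in each Fe supply. Of all genes, 20.4% were lower and 23% higher there with Fe, and 21.5% and 24% without. In fls2 they were 0 and 0, where 0% of all genes were called. In WT with Fe, 9 of 13 further mitotic cyclins and kinases fell, with a median log2 change of -0.48, led by CYCA2;1 (-0.92), CYCB1;3 (-0.64) and CYCA1;1 (-0.58). Of 13 genes of the spindle, its checkpoint and cytokinesis 11 fell, including PANS1 (-0.60), a protector of cohesion, the checkpoint protein MAD2 (-0.59) and the kinase AUR2 (-0.53).

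DNA replication genes fell in 16 of 20 cases, with a median of -0.37, among them the origin recognition subunits ORC1A (-0.70) and ORC6 (-0.61) and the licensing factor CDT1B (-0.65). Of 12 S phase and D-type cyclins 5 fell, led by CYCD3;1 and CYCD4;2 (both -0.68), and 1 rose, CYCD3;3 (0.24). Among 12 transcriptional regulators 4 fell, including SCL28 (-0.60), MYB3R4 (-0.47), an activator of mitotic genes, and E2FA (-0.43), an activator of S phase genes. These counts are for WT with Fe, where 19.4% of all genes were lower and 20.8% higher.

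The 13 inhibitors of cyclin-dependent kinases that were tested had a median log2 change of 0 in WT with Fe. Of these, 2 were called lower, 1 higher and 10 neither, where 19.4% of all genes were lower and 20.8% higher. The SIAMESE-related inhibitor SMR1 fell by 0.98 on the log2 scale, from a mean of 15.6 to 7.90 CPM, and the inhibitory kinase WEE1 fell by 0.60. KRP4, an inhibitor of the Kip-related family, rose by 0.27. Both activators of the anaphase-promoting complex on the list, CCS52A1 and CCS52A2, did not pass the test in WT with Fe. CCS52A1 fell by 0.29 in Fe-deficient WT and, in IMA1ox, by 0.34 with Fe and by 0.53 without. In the DNA damage list 1 of 5 genes fell in WT with Fe, BRCA1 (-0.41), where 19.4% of all genes were lower. In Fe-deficient WT 1 of 5 fell, where 16.8% of all genes were lower. In IMA1ox 4 of 5 fell with Fe (median log2 change -0.27) and 4 of 5 without (-0.32). Of all genes, 20.4% and 21.5% were lower there. In the test of the difference between the flg22 effects of IMA1ox and WT, 0 of the 5 were called in either Fe supply. The median differences were -0.13 with Fe and -0.06 without. Lower and higher calls there covered 0.467% and 0.398% of all genes with Fe, and 0.801% and 2.07% without.

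**Figure D5:**
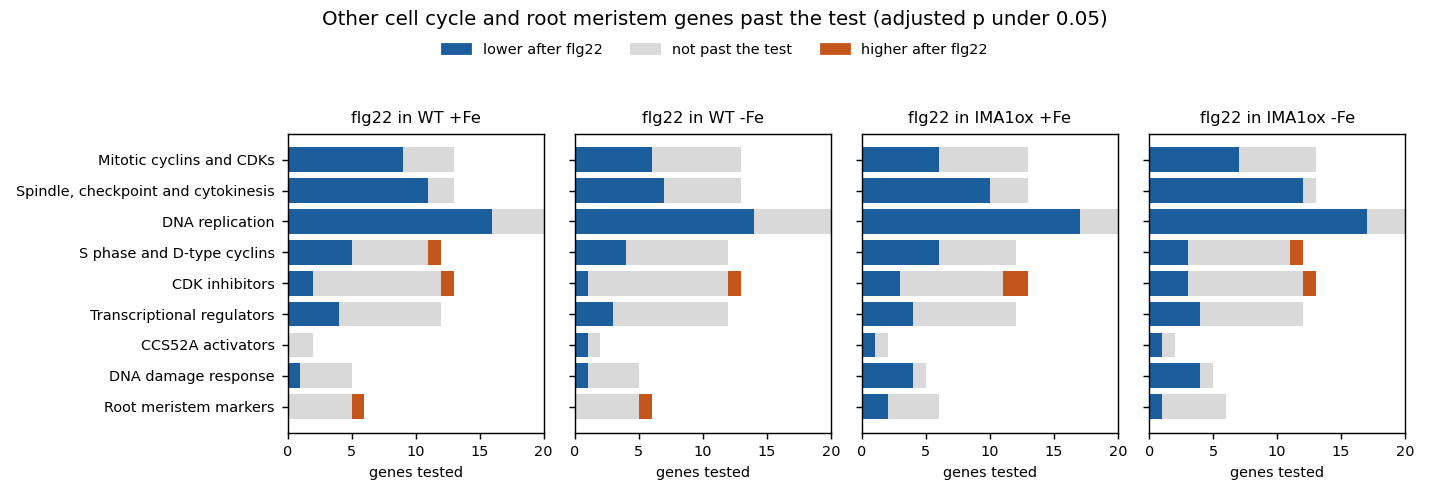
Number of genes tested (x axis) that were lower (blue), higher (orange) or not past an adjusted p of 0.05 (grey) after flg22 in WT and IMA1ox with and without Fe, for 8 lists of other cell cycle genes and the root meristem markers (rows). DNA replication genes were lower in 16 of 20 cases in WT +Fe, while the 6 root meristem markers had 0 lower and 1 higher there. Of all genes, 19.4% were lower and 20.8% higher in WT +Fe.

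Markers of root regions and of other tissue were measured in the same libraries. The 6 root meristem markers PLT1, PLT2, PLT3, BBM, WOX5 and SCR had counts in every group. In WT with Fe their summed level was 125 to 145 CPM without flg22 and 143 to 159 CPM with it, where PLT3 rose by 0.42 on the log2 scale and the other 5 did not pass. In Fe-deficient WT the sums were 127 to 139 and 143 to 158 CPM. In IMA1ox with Fe they were 162 to 165 without and 147 to 154 CPM with flg22, and PLT1 (-0.64) and PLT2 (-0.34) fell. Without Fe the IMA1ox sums were 141 to 162 and 152 to 162 CPM, and PLT1 fell by 0.34. The sums over the fls2 groups lay between 126 and 149 CPM.

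The 6 green shoot markers, photosynthesis genes that a root pool should hold at low level, were none at 0 in any group. Their summed level in WT with Fe was 159 to 214 CPM without flg22 and 215 to 307 CPM with it, and in WT without Fe it was 132 to 209 and 224 to 349 CPM. In IMA1ox the sums were 97.8 to 135 and 134 to 186 CPM with Fe, and 98.1 to 118 and 125 to 178 CPM without. In fls2 the sums were 116 to 155 and 140 to 163 CPM with Fe, and 105 to 123 and 107 to 125 CPM without. In each of the 4 WT and IMA1ox comparisons 3 of the 6 passed the test as higher and 0 as lower. Higher calls covered 18.2% to 24% of all genes in these comparisons. The root markers CASP1 (-0.73), of the endodermis, and COBL9 (-0.46), of root hairs, fell in WT with Fe, and EXPA7 and PYK10 did not pass. In Fe-deficient WT, 2 of the 4 root markers were lower and 1 higher. Lower calls covered 19.4% of all genes in WT with Fe and 16.8% without. In IMA1ox CASP1, COBL9 and the root hair gene EXPA7 fell in each Fe supply, while PYK10 rose. Lower calls there covered 20.4% of all genes with Fe and 21.5% without. The part of these markers in the decrease of the 10 genes was not tested.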

How the data were processed

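RNA of whole roots was sequenced in 36 libraries, 3 per group. The authors deposited a table of raw read counts per gene locus, and a normalised signal table in CPM that is the count table times 1 constant per column. Per the submitters' processing notes, STAR 2.7.0a, edgeR 3.36.0 and the build TAIR10 were used, with no roles given. What counted the reads, whether by strand, and which loci were dropped is not given in the sources used here. Overlapping and antisense genes can therefore share reads.

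The tests ran in R 4.3.3 with the robust quasi-likelihood F-test of edgeR 4.0.16 on the counts, after TMM scaling and filterByExpr (minimum count 10), in 1 fit of all 36 libraries, with Benjamini-Hochberg adjustment over 20354 genes in each of 27 comparisons, 20 between groups and 7 between effects. The code was tested on simulated data. The 95% intervals are from the same fit. The signal table served 1 alternative, limma-trend (limma 3.58.1) on log2(CPM + 1); the others are in the closing section, with DESeq2 1.42.0 among them. Replicate numbers mark no shared culture in the labels.

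Positions, exon lengths and promoters come from the RefSeq annotation of TAIR10.1, looked up by locus; the notes name TAIR10. Named were all 10 genes, up to 3 called genes with the largest change per list and comparison, and the 10 genes of most similar profile. The genes and lists were chosen with earlier results of these data known. CYCD3;3, CCS52A1 and TSO2 were singled out after their values were seen.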

Additional observations from a re-analysis of the deposited data

Results flagged for a closer look

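The flg22 effect differed between fls2 and WT by a test of the difference itself (edgeR, adjusted over all 20354 genes). With Fe the difference, fls2 minus WT on the log2 scale, was 0.45 for CYCB1;2, 0.57 for CYCB1;4, 0.46 for CDKB1;1, 0.31 for CDKB2;1, 0.54 for CDKB2;2, 0.51 for KNOLLE, 0.48 for AUR1 and 0.58 for PCNA1. Without Fe it was 0.42 for CDKB1;1, 0.38 for CDKB2;1, 0.55 for CDKB2;2, 0.48 for AUR1 and 0.51 for PCNA1.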

How the results depend on the processing

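Results were recomputed with DESeq2, limma-trend on the CPM table, RLE scaling, scaling by library totals, a filter of at least 5 CPM in 3 libraries, no count filter, only the groups compared, a replicate block, each library left out in turn and, chosen after seeing the data, leaving out WT -Fe replicate 3 with IMA1ox -Fe flg22 replicate 1. Of 4310 values of a gene in a comparison under an alternative, 4242 kept their side of the threshold, 39 lost it, 29 gained it and 0 reversed among called values. Counts with 1 library left out are given in the next paragraph, and among them flg22 in IMA1ox without Fe went from 10 to 5. Under the other alternatives, 3 counts moved by over 1.5 times, or from 0. IMA1ox against WT with Fe went from 0 to 1 with library totals and 2 with only the groups compared. IMA1ox against WT with Fe and flg22 went from 0 to 2 with library totals. The flg22 effect in fls2 minus WT without Fe went from 5 to 9 without the 2 libraries. The cause was not tested. Smaller moves came with only the groups compared (flg22 in WT without Fe from 8 to 7, flg22 in IMA1ox without Fe from 10 to 8, fls2 minus WT with Fe from 8 to 9), and without the 2 libraries (flg22 in WT without Fe from 8 to 9). The difference fls2 minus WT without Fe went from 5 to 7 with library totals, the 5 CPM filter, DESeq2 and only the groups compared. Library totals moved the median gene by at most 0.07 on the log2 scale.

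With 1 library left out, the count of genes called after flg22 ran from 9 to 10 in WT with Fe, 7 to 9 in WT without Fe, 7 to 10 in IMA1ox with Fe and 5 to 10 in IMA1ox without Fe. It ran from 6 to 8 for the difference fls2 minus WT with Fe and 4 to 9 without Fe. It ran from 0 to 1 for Fe deficiency in IMA1ox with flg22 (1 without IMA1ox -Fe flg22 replicate 2) and for IMA1ox against WT with Fe and flg22 (1 without IMA1ox +Fe flg22 replicate 1), and stayed at 10 for fls2 against WT under flg22 and at 0 in the others.

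Replicate numbers did not pair the libraries: in 0 of 20 comparisons were all same-numbered pairs correlated over 0.1 (r from -0.28 to 0.33), and 16 of 36 libraries correlated best with their own number. The replicate block changed no count of the 10 genes, with 10 called after flg22 in WT with Fe and 8 without. At 307 or more counts per gene and library, 3 pools a group gave standard errors of 0.07 to 0.11 on the log2 scale in comparisons between 2 groups, which limits the size of change that could be detected.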

Other observations

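TSO2 (AT3G27060) encodes a small subunit of ribonucleotide reductase, an Fe-containing enzyme that makes the building blocks of DNA. It was the only one of the 90 other cell cycle genes tested that Fe deficiency moved past the test. In WT it rose from a mean of 88.4 to 142 CPM, a log2 change of 0.68 ± 0.09 (SE, edgeR adjusted p = 3.69e-06), and in fls2 from 93.7 to 137 CPM (0.55). In IMA1ox it stood at 90.5 CPM with Fe and 97.0 CPM without (0.10, edgeR adjusted p = 0.665). A test of the difference between IMA1ox and WT, added after these values were seen, gave -0.58 ± 0.12 (SE, edgeR adjusted p = 0.00419), where 2.31% of all genes were called lower and 1.71% higher. Under flg22 the difference was -0.36 (edgeR adjusted p = 0.339). In these same differences 0 of the 10 genes was called. After flg22, TSO2 fell by 0.51 in WT with Fe and by 0.75 without.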
